A study of Mus musculus with 24 samples.

Results

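Liver RNA of male mice without Abcb4 was compared with that of wild type males at 20 weeks on 6 of the 24 arrays of a time course, the 6 whose titles give 20 weeks. Abcb4 is the phospholipid flippase of the bile canaliculus. It carries phosphatidylcholine into bile, where the phospholipid is packed into mixed micelles with bile acids and cholesterol. Without it, bile holds free bile acids that are toxic to the bile duct lining, and mice of this kind are used as a model of sclerosing cholangitis, with inflamed and scarred portal tracts and, in old animals, liver tumours.

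The knockout mice carried the Abcb4tm1Bor allele (strain FVB.129P2-Abcb4tm1Bor/J, abcb4 -/-) on the FVB background, and the controls were FVB/NJ mice with intact alleles (abcb4 +/+). The labels name no treatment, and the design text calls the knockout animals sick and the controls healthy. Each array carried total RNA of a knockout liver in one dye and of a wild type liver in the other. Arrays 1, 2 and 6 had the knockout in Cy5 and arrays 3, 4 and 5 the wild type. The design text counts 5 mice per genotype and time with 1 dye swap among the 6 arrays, without naming the repeat, so the 6 arrays are not 6 independent pairs of mice and p-values rest in part on technical spread. One label counts the weeks from weaning, so 20 weeks need not be the age from birth.

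Each value given here is a log2 ratio of knockout over wild type on an array centred on its median, and "±" is the SD over the 6 arrays of the week (n = 6). Log base 2 is an assumption, because the labels do not state the base. So is the direction, which was chosen to place the Abcb4 feature below 0. If the deposited ratios run the other way, all rises and falls described here exchange. No intensities were used here, so a ratio says nothing of how abundant a transcript was, and the liver identity of the samples could not be checked by level. Whole liver was measured, so fewer cells of a type and less RNA per cell cannot be told apart. Over all 20861 items tested, which are 16504 named genes and the features without a single gene, the median log2 ratio was -0.0034.

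The 6 arrays were not equally alike. After turning to knockout over wild type, the correlation over all single features was 0.771 between arrays 1 and 2 and 0.056 between arrays 1 and 5. It was 0.621 between arrays 5 and 6 and 0.614 between arrays 3 and 6, which are of opposite dye orientation. Arrays 1 and 2 also had the widest spread of log ratios, with an SD of 0.388 and 0.354 against 0.258 to 0.312 on the other arrays. Results that end when either was left out are named where they occur.

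In limma's moderated test, with 1 mean per week and a common dye term fitted to all 24 arrays, 2807 of the 20861 items passed an adjusted p of 0.05 (Benjamini-Hochberg) at 20 weeks, which is 13.5%. Of these 1687 were higher in the knockout (8.09% of those tested) and 1120 lower (5.37%). Named genes made up 2467 of the calls, 1537 higher and 930 lower, and 1806 of them had a single sign on all 6 arrays. The mean lay beyond 1 log2 unit for 137 named genes, 95 higher and 42 lower. Without array 2 the count was 1821, the lowest of the 6 counts with an array left out. It was 1191 without arrays 1 and 2 together, a setting chosen after seeing the data.

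The feature for Abcb4 itself, on chromosome 5, read -0.996, -1.17, -1.03, -1.43, -1.83 and -1.60 on arrays 1 to 6 (-1.34 ± 0.34). All 6 values lay below 0, which is the assumption that set the direction and not a finding, and whether the probe lies in the disrupted part of the gene is not known. Its neighbours on chromosome 5, the drug efflux pumps Abcb1a and Abcb1b, rose by 0.28 ± 0.12 and 0.39 ± 0.24 (adjusted p = 0.00509 and 0.00151), above 0 on all 6 arrays. By its strain name the knockout allele came into FVB from a different strain, so DNA near Abcb4 may differ in origin between the genotypes. Whether the rises of these neighbours go with such DNA or with the loss of Abcb4 was not tested.

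The 15 largest rises with a single sign on all arrays ran from 1.82 to 3.46. Ifi27l2b, an interferon-inducible gene, ranged over 2.89, 3.54 and 4.04 (lowest, median and highest array) and rose by 3.46 ± 0.49 (adjusted p = 3.89e-11). Anxa5, a calcium-dependent phospholipid-binding annexin, ranged over 2.66, 3.25 and 3.73 and rose by 3.25 ± 0.35 (adjusted p = 6.84e-11). No array of either gene came near 0. Lcn2, the siderophore-binding lipocalin secreted by injured epithelium and hepatocytes, rose by 2.67 ± 1.06 (adjusted p = 0.000295), with 5 arrays between 1.62 and 2.67 and array 4 apart from them at 4.68. Ly6e, a GPI-anchored lymphocyte antigen that interferon induces, rose by 2.42 ± 0.45, and the trefoil peptide Tff3, secreted by mucous epithelia, rose by 2.00 ± 0.17 with the narrowest spread of the 15.

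The invariant chain Cd74 of MHC class II molecules rose by 2.01 ± 0.43, the collagen gene Col3a1 by 1.99 ± 0.45 and lumican (Lum), a proteoglycan that binds collagen fibrils, by 1.93 ± 0.71. Lum was higher on arrays 1, 2 and 6, which have the knockout in Cy5, than on the 3 others, whereas Col3a1 was lowest on array 1. Klra8, which encodes the natural killer cell receptor Ly49H, rose by 2.36 ± 0.31. Relatives of Klra8 in the Ly49 family can share probe sequence, so this value is uncertain as to the member. Pls1, an actin-bundling protein of intestinal and other microvilli, rose by 1.84 ± 0.52, the calcium-binding S100a11 by 1.83 ± 0.34, the reticulon Rtn4 by 1.91 ± 0.47 and the phospholipase Ddhd1 by 1.82 ± 0.26. The steroid hydroxylases Cyp3a41a and Cyp3a16 rose by 1.92 ± 0.95 and 1.91 ± 1.04, with array 2 highest at 3.50 and 3.81. Probes of the Cyp3a family can bind each other's transcripts, so these may not be separate measurements.

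The 15 largest falls ran from -1.39 to -3.64, and 5 of them are P450 or Hsd3b enzymes. Cyp2c38, a P450 of the arachidonic acid and drug metabolising 2C family, ranged over -4.20, -3.65 and -3.02 and fell by 3.64 ± 0.49 (adjusted p = 8.73e-09). Its relative Cyp2c37 fell by 2.12 ± 0.59 and the caffeine-metabolising Cyp1a2 by 1.45 ± 0.84. Hsd3b5 and Hsd3b4, 3-keto steroid reductases of the Hsd3b family, fell, with means of -2.57 ± 0.49 and -2.60 ± 0.67 and the lowest value of both on array 3. The carboxylesterases Ces1f and Ces1e, which hydrolyse esters and lipids, fell by 1.76 ± 0.64 and 1.69 ± 0.34. Members of the Cyp2c, Hsd3b and Ces1 families are close in sequence, and a fall of one may be read by the probe of another.

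Moxd1, a monooxygenase-like protein resembling dopamine beta-hydroxylase, fell by 1.93 ± 0.66, Slc22a7, the organic anion transporter of the hepatocyte's blood side, by 1.59 ± 0.69, and Elovl3, an elongase of long-chain fatty acids, by 1.56 ± 0.45. Array 1 was nearest to 0 for all 3 genes. Serum amyloid P (Apcs), the major pentraxin of the mouse acute phase, fell by 1.63 ± 0.87 and ranged over -2.95, -1.58 and -0.38. The dehydrogenase/reductase family member Sdr9c7 fell by 1.79 ± 0.17, the phosphomannomutase Pmm1 by 1.60 ± 0.42, and the transcription coactivator subunit Ascc2 by 1.47 ± 0.62. Plasminogen (Plg), the precursor of the fibrin-cleaving protease, fell by 1.39 ± 0.54 with all 6 arrays below 0, but its adjusted p of 0.0219 rose to 0.0669, 0.0846 and 0.0546 without array 1, 2 or 3.

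**Figure D1:**
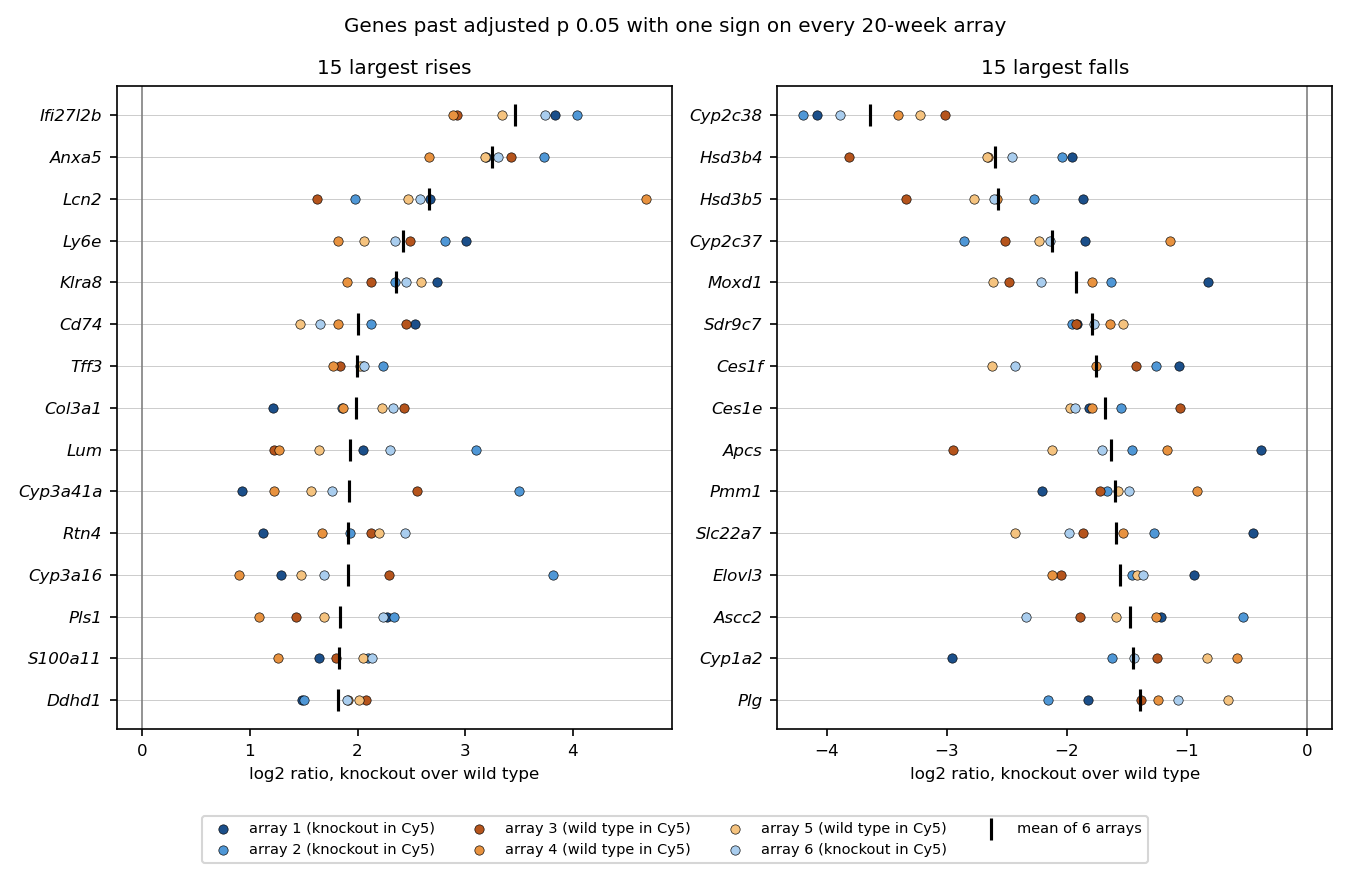
Log2 ratios of knockout over wild type (horizontal axis) on each of the 6 arrays at 20 weeks (points, blue with the knockout in Cy5, orange with the wild type in Cy5) for the 15 largest rises and falls, with the mean as a bar. No point crosses 0, Lcn2 has array 4 at 4.68 apart from the other arrays, and Cyp2c38 has the lowest values.

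In 29 lists of genes, members were picked for naming by a rule, up to 5 with the smallest p in each list. Some of those picked are not described, such as Tubb5 of the cell cycle list, Tm7sf2 of cholesterol synthesis and Pparg of the adipose list. Each list member named beyond those picked was chosen after its values were seen. These are the members named that did not pass, apart from H2-DMa, Hba-a1 and Ctrb1, which the rule picked. Of those that passed, they are Serpinh1, Loxl2, Nid1, Sparc, Col4a1, Col4a2, Ccn2, Ngfr, Krt8, Krt18, Krt23, Tff1, Slc4a2, C1qb, Trem2, Cd163, Cxcl10, Ccl20, Il1b, Irf7, Ifit1, Gbp2, Esam, Kdr, Adgre1, Cyp2c39, Cyp2c29, Cyp3a25, Cyp3a11, Fmo5, Cat, G6pc, Slc10a1, Abcb1a, C6, Slc22a29, Lgals3, S100a6 and Scd2. The shares of each list are to be read against the 13.5% of all items that passed. Counts at an unadjusted p under 0.05 are to be read against 26.2% of all items, 14% higher and 12.2% lower. The medians of the lists are descriptions without a test.

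Fibroblast-like cells lay down extracellular matrix in scarred liver. Of 38 measured genes for matrix proteins and the enzymes that process them, 24 rose and 0 fell (63.2%). At an unadjusted p under 0.05, 28 lay higher and 1 lower. The list's median was 0.43, and its median on single arrays ran from 0.26 to 0.52. The fibrillar collagen genes Col1a2, Col1a1 and Col3a1 rose by 1.55 ± 0.34, 1.31 ± 0.43 and 1.99 ± 0.45, with the lowest array at 0.68 or above. Matrix Gla protein (Mgp), an inhibitor of calcification, ranged over 1.01, 1.52 and 2.74 and rose by 1.68 ± 0.65. The rises reached the collagen-specific chaperone Serpinh1 (1.09 ± 0.40), the lysyl oxidase Loxl2 that cross-links collagen (1.16 ± 0.52), the collagen-binding Sparc (0.91 ± 0.21), and the basement membrane genes Nid1 (1.33 ± 0.57), Col4a1 (0.83 ± 0.26) and Col4a2 (0.59 ± 0.24). All 6 arrays were above 0 for each of them. Fibronectin (Fn1, -0.29 ± 0.53) and elastin (Eln, -0.35 ± 0.77) did not pass, with adjusted p of 0.344 and 0.271. None of the 38 genes passed the contrast of 20 weeks with the mean of 3, 6 and 9 weeks in limma, and at an unadjusted p under 0.05 2 lay above and 4 below, against 8.79% and 7.19% of all items in that contrast.

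Among 18 measured proteases and inhibitors of matrix turnover, 7 rose and 1 fell. Matrilysin (Mmp7), a protease of epithelial cells, ranged over 0.31, 0.63 and 1.40 and rose by 0.75 ± 0.41 (adjusted p = 6.55e-05). Its highest values were on arrays 5 and 6. Gelatinase A (Mmp2, 0.67 ± 0.23), the protease inhibitor Timp3 (0.62 ± 0.18) and the plasminogen activator Plat (0.45 ± 0.13) rose on all 6 arrays, and Mmp23 fell by 0.56 ± 0.32. The list's median was 0.13, and only 4 members rose without array 6 and 4 with the closest pair of arrays averaged.

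Markers of hepatic stellate cells, the vitamin A storing cells that turn into matrix-secreting myofibroblasts, gave 14 rises and 1 fall among 25 measured, with a median of 0.28. Vimentin (Vim), the intermediate filament of mesenchymal cells, ranged over 1.39, 1.64 and 2.25 and rose by 1.73 ± 0.31 (adjusted p = 1.35e-06). Cytoglobin (Cygb), a globin of stellate cells, rose by 1.08 ± 0.38, the PDGF receptors Pdgfrb and Pdgfra by 1.04 ± 0.34 and 0.54 ± 0.25, and the TGF-beta induced matrix protein Tgfbi by 0.98 ± 0.47. All 6 arrays were above 0 for these 5 genes, and for Ccn2, the connective tissue growth factor (1.00 ± 0.32). The fall was in the nerve growth factor receptor Ngfr (-0.41 ± 0.25). Smooth muscle actin (Acta2), which marks activated myofibroblasts, read -1.04, -0.58, 0.075, 0.04, 1.14 and 0.45 on arrays 1 to 6 (0.015 ± 0.77, adjusted p = 0.982), so that 2 arrays lay below 0 and 4 above. Transgelin (Tagln) read 0.18 ± 0.40, desmin (Des) 0.091 ± 0.17 and calponin (Cnn1) -0.072 ± 0.029, with adjusted p of 0.407, 0.343 and 0.428. The 14 rises became 9 without arrays 1 and 2 together.

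The lining of the bile ducts proliferates as a ductular reaction in cholestasis. Of 28 measured genes of biliary epithelium and ductular reaction 17 rose and 2 fell, with a median of 0.44 and medians of 0.31 to 0.69 on single arrays. Besides Anxa5 and Tff3, the rises held E-cadherin (Cdh1), the adhesion molecule of epithelial junctions, with 0.91, 1.28 and 1.64 over the arrays and a mean of 1.30 ± 0.29 (adjusted p = 7.73e-06). Keratin 19 (Krt19), a filament protein that marks bile duct cells and not hepatocytes, ranged over 0.45, 0.59 and 1.39 and rose by 0.78 ± 0.37 (adjusted p = 9.93e-06). The epithelial adhesion molecule Epcam, found on bile duct and progenitor cells, ranged over 0.29, 0.94 and 1.57 and rose by 0.97 ± 0.50 (adjusted p = 1.44e-05). For both genes arrays 5 and 6 were highest and array 3 lowest. The keratins Krt8 (1.30 ± 0.39) and Krt18 (0.78 ± 0.34), which hepatocytes hold too, and Krt23 (1.03 ± 0.43) also rose, with array 4 lowest for all 3. Sox9, a transcription factor of biliary cells, read -0.096 ± 0.27, and the chloride channel Cftr 0.089 ± 0.10 (adjusted p = 0.698 and 0.296). Of the 2 falls, that of the anion exchanger Slc4a2 (-0.40 ± 0.28) ended without array 1, and that of Tff1 (-0.14 ± 0.099) ended without array 1, 4, 5 or 6. In the contrast of 20 weeks with the mean of 3, 6 and 9 weeks, 2 of the 28 genes passed above 0 and 2 below, against 1.51% and 0.853% of all items. The rise of Krt18 was smaller at 20 weeks than before (difference -0.89), a call that ended without array 2.

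**Figure D2:**
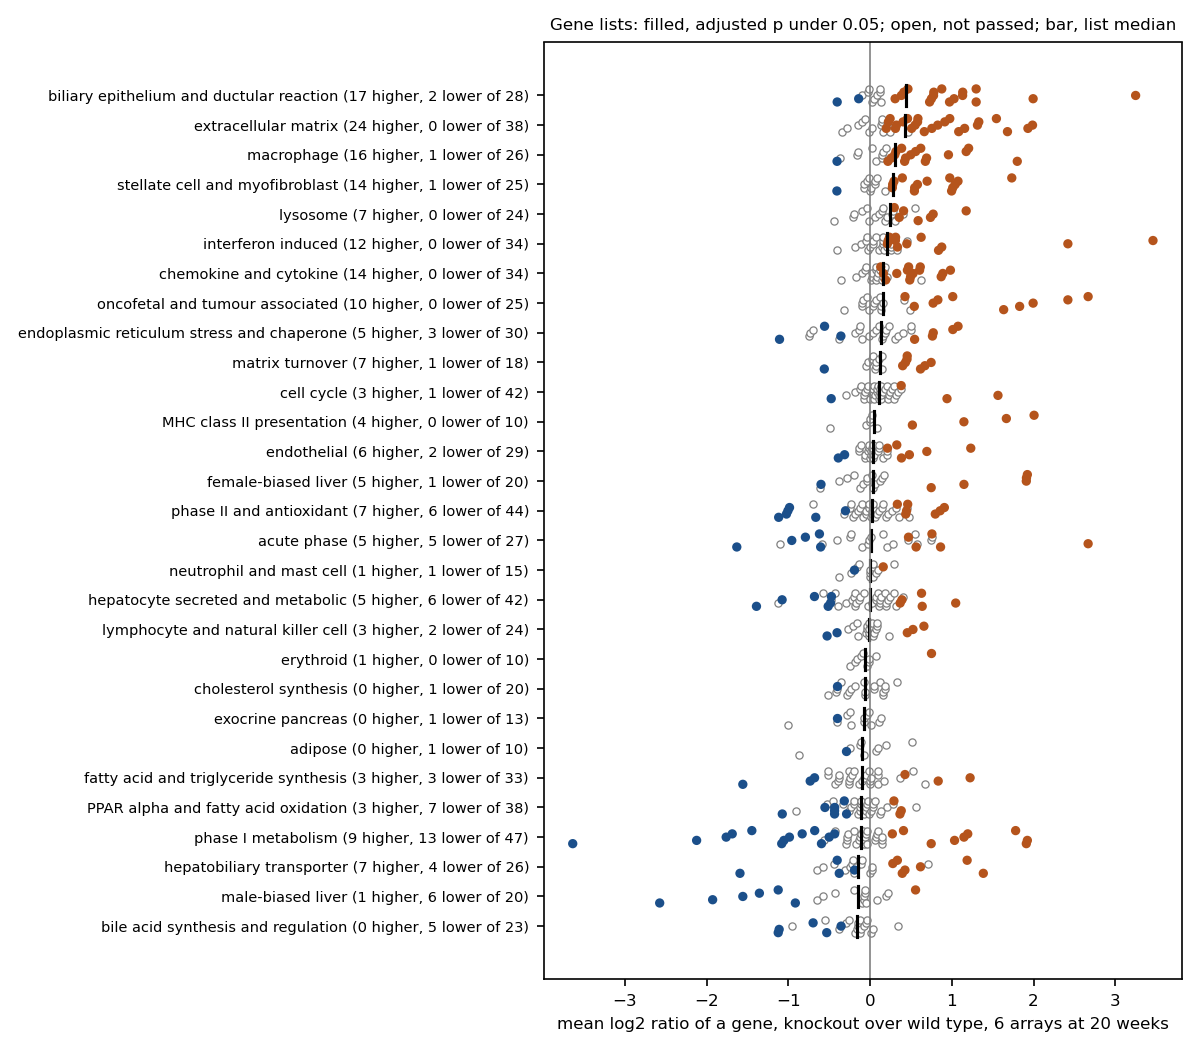
Mean log2 ratio of each measured gene (horizontal axis, knockout over wild type, 6 arrays at 20 weeks) in 29 gene lists, ordered by the list median (bar), with filled points for genes past an adjusted p of 0.05. Biliary and matrix genes have medians of 0.44 and 0.43 and bile acid synthesis one of -0.16. This order changes with single arrays left out: without array 1 the matrix median (0.452) lies above the biliary one (0.423), and without array 4 that of acute phase genes is lowest (-0.28).

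Macrophages, the resident Kupffer cells and the cells that monocytes give rise to, take up debris and present antigen. Of 26 measured macrophage genes 16 rose and 1 fell, with a median of 0.31. The median was 0.62 on array 1 and 0.13 on array 5. Lysozyme (Lyz2) ranged over 1.17, 1.89 and 2.08 and rose by 1.80 ± 0.33 (adjusted p = 1.52e-08), lowest on array 1. The perforin-like Mpeg1 ranged over 0.99, 1.14 and 1.71 and rose by 1.21 ± 0.27 (adjusted p = 2.88e-07), highest on array 1. Cathepsin S (Ctss), which trims the class II invariant chain, rose by 1.18 ± 0.41, the signalling adaptor Tyrobp by 0.96 ± 0.51, and the IgG receptor Fcgr3 by 0.68 ± 0.18. The complement chain C1qb, made by macrophages, rose by 0.56 ± 0.31, with arrays 5 and 6 lowest (0.19 and 0.16), and the lipid-sensing receptor Trem2 by 0.50 ± 0.30. The surface receptor Adgre1, found on macrophages including Kupffer cells, rose by 0.39 ± 0.31, a call that ended without array 1, 2, 3 or 4. Clec4f, the C-type lectin that marks Kupffer cells in mice, read -0.37 ± 0.47, Marco -0.16 ± 0.19 and Vsig4 0.15 ± 0.62, with adjusted p of 0.168, 0.62 and 0.634, and the scavenger receptor Cd163 fell by 0.40 ± 0.33, a call that ended when the 20-week arrays were fitted on their own. The 16 rises became 8 without arrays 1 and 2 together.

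In the MHC class II list, whose products display extracellular peptides to helper T cells, 4 of 10 measured genes rose and 0 fell, and at an unadjusted p under 0.05 1 lay lower. Besides Cd74, the class II chains H2-Aa and H2-Ab1 rose by 1.67 ± 0.31 and 1.15 ± 0.20, and the peptide-loading chain H2-DMb1 by 0.52 ± 0.28, each above 0 on all 6 arrays. Its partner chain H2-DMa ran from -1.59 on array 1 to 0.46 on array 5 and did not pass (-0.49 ± 0.71, adjusted p = 0.133), and H2-Eb1 read -0.0048 ± 0.22 (adjusted p = 0.991). The list's median was 0.051.

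Chemokines and cytokines recruit and activate leukocytes. Of 34 measured 14 rose and 0 fell, with 2 lower at an unadjusted p under 0.05, and the median was 0.16. Ccl2, the chemokine that draws monocytes, ranged over 0.15, 1.01 and 1.24 and rose by 0.87 ± 0.42 (adjusted p = 0.000932). Its receptor Ccr2 rose by 0.61 ± 0.31. The macrophage growth factor Csf1 rose by 0.61 ± 0.25, Ccl5, which draws T cells, by 0.46 ± 0.26, and Cxcl16, the ligand of Cxcr6, by 0.50 ± 0.26. Ccl5 was higher on arrays 1 and 2 (0.75 and 0.80) than on the other 4, and Cxcl16 lower on them (0.20 and 0.14). The interferon-induced chemokine Cxcl10 rose by 0.98 ± 0.61 and Ccl20 by 0.89 ± 0.38, and both were lowest on arrays 3 and 4. The inflammatory cytokine Il1b rose by 0.33 ± 0.16, a call that ended without array 1 or 6. The cytokines Tnf (0.071 ± 0.07) and Il6 (0.094 ± 0.20) did not pass, with adjusted p of 0.32 and 0.649. The 14 rises became 5 without arrays 1 and 2 together.

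Interferon-induced genes were measured for 34 members, of which 12 rose and 0 fell, none lower at an unadjusted p under 0.05 either. The median was 0.21 and lay between 0.11 and 0.31 on single arrays. Ifi27l2b and Ly6e, given above, had the highest means, and the other 10 lay between 0.21 and 0.88. The immunoproteasome subunit Psmb8, which makes peptides for class I molecules, ranged over 0.65, 0.77 and 1.40 and rose by 0.88 ± 0.29 (adjusted p = 4.47e-06). Tetherin (Bst2), a membrane protein that holds back budding viruses, ranged over 0.49, 0.82 and 1.30 and rose by 0.84 ± 0.31 (adjusted p = 8.21e-06). The oligoadenylate synthetase-like Oasl1 rose by 0.34 ± 0.19, Ifit1, which binds foreign RNA, by 0.24 ± 0.14, and the guanylate-binding GTPase Gbp2 by 0.31 ± 0.15. Irf7, a transcription factor of the response, rose by 0.45 ± 0.32 and ranged over 0.018, 0.47 and 0.76. The call for Ifit1 ended without array 1, 5 or 6, and that for Gbp2 (adjusted p = 0.0493) ended with any of the 6 arrays left out. Isg15, a ubiquitin-like protein of the same response, read -0.0017 ± 0.49 (adjusted p = 0.998), with the lowest array at -0.37 and the highest at 0.94.

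Transcription of such genes by the factor ISGF3 runs through the interferon-stimulated response element, searched here as the letters GAAA, any 2 bases and GAAA again, on both strands in the 250 bases before the start of transcription in RefSeq's promoters (GRCm38.p6). Of 13223 genes on the array with such a promoter, 446 held it (3.37%). Of the 24 interferon-list members with a promoter 8 held it (33.3%), 3 of the 10 that rose and 5 of the 14 that did not pass. Among the 3, Gbp2 and Ifit1 had calls that ended with single arrays left out, as given above. The promoters of the 3 that rose and of Isg15, which did not, are shown with the matches in capitals, overlapping matches run together, because they show that the letters stand in promoters of genes on either side of the test. They lie at chr8:71537473-71537722 (Bst2, minus strand), chr3:142620413-142620662 (Gbp2, plus strand), chr19:34640639-34640888 (Ifit1, plus strand) and chr4:156200819-156201068 (Isg15, minus strand), each printed 5′ to 3′ on the strand of its gene.
Bst2: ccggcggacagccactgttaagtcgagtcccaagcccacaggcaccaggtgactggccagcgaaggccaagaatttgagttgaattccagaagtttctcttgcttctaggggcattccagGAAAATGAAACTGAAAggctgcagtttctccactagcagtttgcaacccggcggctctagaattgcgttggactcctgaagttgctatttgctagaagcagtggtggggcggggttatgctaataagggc
Gbp2: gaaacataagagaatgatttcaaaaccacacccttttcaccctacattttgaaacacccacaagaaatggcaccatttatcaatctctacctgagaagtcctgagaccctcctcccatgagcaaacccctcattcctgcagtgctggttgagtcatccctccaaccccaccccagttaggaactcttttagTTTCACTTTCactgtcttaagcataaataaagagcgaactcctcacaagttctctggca
Ifit1: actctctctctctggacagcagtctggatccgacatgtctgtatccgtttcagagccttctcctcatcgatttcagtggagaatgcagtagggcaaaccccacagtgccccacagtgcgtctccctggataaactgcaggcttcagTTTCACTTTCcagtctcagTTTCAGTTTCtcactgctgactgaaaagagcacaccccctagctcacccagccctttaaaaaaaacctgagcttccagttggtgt
Isg15: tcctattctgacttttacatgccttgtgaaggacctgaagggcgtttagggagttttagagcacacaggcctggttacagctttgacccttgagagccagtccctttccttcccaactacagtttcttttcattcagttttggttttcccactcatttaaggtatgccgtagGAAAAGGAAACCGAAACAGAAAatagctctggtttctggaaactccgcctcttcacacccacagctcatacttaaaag
The first match began at position -130 in Bst2, -59 in Gbp2, -104 in Ifit1 and -78 in Isg15, counted from the base before the start as -1. A match is a description of these letters and not a measured binding site.

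Of 24 measured lymphocyte and natural killer cell genes 3 rose and 2 fell, with a median of -0.013. The joining chain of secreted antibodies, Jchain, ranged over 0.20, 0.70 and 1.02 and rose by 0.66 ± 0.32 (adjusted p = 5.11e-07). The pan-leukocyte phosphatase Ptprc rose by 0.46 ± 0.12 and the leukocyte actin regulator Coro1a by 0.53 ± 0.22, while the T cell surface protein Cd5 fell by 0.53 ± 0.15 and the T cell receptor kinase Zap70 by 0.40 ± 0.19. The T cell receptor subunit Cd3e (-0.031 ± 0.18) did not pass (adjusted p = 0.887). Neutrophil and mast cell genes gave 1 rise and 1 fall of 15 measured, a share of 13.3%, with a median of 0.0046. The rise was the mast cell protease Mcpt4 (0.16 ± 0.077), whose call ended without array 2, 4 or 5, and the fall the chymase Cma1 (-0.19 ± 0.19), whose call ended without array 1, 2, 5 or 6.

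Endothelial genes gave 6 rises and 2 falls of 29, with a median of 0.036. The adhesion molecules that capture leukocytes, Vcam1 (1.23 ± 0.30) and Icam1 (0.38 ± 0.13), rose on all 6 arrays, as did Cd34 (0.70 ± 0.31), found on vascular but little on sinusoidal endothelium, the adrenomedullin receptor partner Ramp2 (0.33 ± 0.20) and the endocytic protein Ehd4 (0.48 ± 0.24). The junction proteins Cdh5 (-0.14 ± 0.14) and Pecam1 (0.036 ± 0.18) and the sinusoidal receptors Stab2 (-0.0067 ± 0.34) and Lyve1 (0.11 ± 0.14) did not pass, with adjusted p of 0.164, 0.856, 0.984 and 0.34. The 2 falls were in the junction protein Esam (-0.31 ± 0.24) and the VEGF receptor Kdr (-0.39 ± 0.36), and they became 1 without array 1, 2 or 5 and 0 without array 6. Lysosomal genes gave 7 rises and 0 falls of 24, with none lower at an unadjusted p under 0.05 and a median of 0.24. Without array 1 there were 4 rises. Besides Ctss, the cholesterol-binding Npc2 rose by 0.74 ± 0.10, the membrane protein Cd63 by 0.77 ± 0.096 and the protease cathepsin B (Ctsb) by 0.59 ± 0.23.

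The hepatocyte's drug-metabolising enzymes went both ways. Of 47 measured phase I genes, which oxidise or hydrolyse drugs, steroids and fatty acids, 9 rose and 13 fell, with a median of -0.11. Cyp2e1, which oxidises ethanol and small solvents near the central vein, ranged over -1.59, -1.10 and -0.16 and fell by 1.05 ± 0.49 (adjusted p = 2.22e-05), with array 4 nearest to 0. The falls also took in Cyp2c39 (-1.08 ± 0.30), Cyp2c29 (-0.83 ± 0.26) and Cyp3a25 (-0.99 ± 0.37), whereas Cyp3a11, the main xenobiotic-metabolising Cyp3a of mouse liver, rose by 1.78 ± 1.04. Aldh3a2, the dehydrogenase of fatty aldehydes, ranged over 0.97, 1.18 and 1.37 and rose by 1.20 ± 0.15 (adjusted p = 6e-05). The flavin monooxygenases Fmo5 and Fmo1 rose by 1.03 ± 0.36 and 0.75 ± 0.21, and Cyp2a4, a testosterone 15-alpha-hydroxylase, by 1.15 ± 0.31.

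Phase II and antioxidant genes, whose products conjugate drugs to glutathione, sulphate or sugars and detoxify peroxides, gave 7 rises and 6 falls of 44, with a median of 0.02. The sulfotransferase Sult5a1 ranged over -1.39, -1.14 and -0.85 and fell by 1.12 ± 0.18 (adjusted p = 4.11e-06), and the glutathione transferase Gstt3 fell by 1.00 ± 0.33. Gstm3 and Gstm1 rose by 0.91 ± 0.67 and 0.86 ± 0.67, highest on arrays 2 and 3, although probes of the Gstm family can bind each other's transcripts. The call for Gstm1 ended without array 2 (adjusted p = 0.0539). Catalase (Cat), which breaks down hydrogen peroxide, read -2.84, -1.89, -0.15, -0.49, -0.04 and -0.50 on arrays 1 to 6 and fell by 0.98 ± 1.12, a mean carried by arrays 1 and 2, and the call ended without array 1, 2 or 4. Nqo1 (0.36 ± 0.24), a target of the oxidative stress factor NRF2, did not pass (adjusted p = 0.0731). The rises fell to 2 without array 2 and 4 without array 6, and the falls to 3 without array 1.

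Bile acids are made from cholesterol in hepatocytes. Of 23 genes of bile acid synthesis and its regulation 5 fell and 0 rose, with 1 higher at an unadjusted p under 0.05, and the median was -0.16. Cyp27a1, the mitochondrial sterol 27-hydroxylase of the acidic pathway, ranged over -0.76, -0.53 and -0.35 and fell by 0.53 ± 0.16 (adjusted p = 8.96e-05). The oxysterol 7-alpha-hydroxylase Cyp7b1 of the same pathway ranged over -1.97, -0.96 and -0.82 and fell by 1.12 ± 0.44, with an adjusted p of 0.0192 that became 0.0502 without array 1 and 0.0725 without array 3. The rate-limiting enzyme of the classical pathway, Cyp7a1, read -0.30 ± 0.44 and the 12-alpha-hydroxylase Cyp8b1 -0.96 ± 0.87, and neither passed (adjusted p = 0.496 and 0.126). The bile acid receptor FXR (Nr1h4) read 0.34 ± 0.30 and its target SHP (Nr0b2) -0.38 ± 0.49, with adjusted p of 0.0891 and 0.218. The side-chain oxidase Acox2 (-0.70 ± 0.39), the acyl-CoA synthetase Slc27a2 (-1.11 ± 1.43) and the nuclear receptor Nr5a2 (-0.35 ± 0.29) made up the other falls, and each call ended when certain single arrays were left out: arrays 4, 5 or 6 for Acox2, 1 or 2 for Slc27a2, and 1, 2, 3 or 6 for Nr5a2. Slc27a2 was at -3.46 and -2.31 on arrays 1 and 2 and between -0.51 and 0.03 on the others. Without array 1 the list had 2 falls, and without array 2, 3 or 6 it had 3.

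Hepatobiliary transporters gave 7 rises and 4 falls of 26, with a median of gene means of -0.14, below the -0.08 to 0.12 of the medians on single arrays. Abcc3, which exports conjugated bile acids and bilirubin to blood, ranged over 0.42, 1.27 and 1.79 and rose by 1.19 ± 0.47 (adjusted p = 0.00136), lowest on array 1. The water channel Aqp8 of the canaliculus ranged over 0.086, 1.56 and 2.07 and rose by 1.39 ± 0.69 (adjusted p = 0.000999), with array 4 near 0. Slc10a2, the apical bile acid transporter of bile duct cells and ileum, rose by 0.62 ± 0.24. Among carriers for uptake from blood, Slc22a7 is given with the largest falls, and the main bile acid uptake transporter, Slc10a1, fell by 0.38 ± 0.21 (adjusted p = 0.00276), while Slco1a1 (-0.65 ± 0.27) did not pass (adjusted p = 0.215). The canalicular bile salt export pump Abcb11 (-0.17 ± 0.22), the conjugate pump Abcc2 (-0.11 ± 0.24) and the sterol pumps Abcg5 (-0.21 ± 0.27) and Abcg8 (-0.22 ± 0.56) did not pass, with adjusted p of 0.47, 0.52, 0.477 and 0.484. The 7 rises became 3 without arrays 1 and 2 together.

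PPAR alpha is the nuclear receptor that drives fatty acid oxidation in the liver. Its list of targets and oxidation genes gave 3 rises and 7 falls of 38, a share of 26.3%, with a median of -0.11 that became -0.047 without array 5. The receptor Ppara itself ranged over -0.63, -0.40 and -0.28 and fell by 0.43 ± 0.15 (adjusted p = 0.00379), and the carnitine-acylcarnitine carrier Slc25a20 of mitochondria fell by 0.55 ± 0.34. Cpt2 (-0.29 ± 0.26) and Pex11a (-0.43 ± 0.29) fell too, whereas Vnn1, 1 of the 3 rises, rose by 0.37 ± 0.21 and lay above 0 on all 6 arrays. The calls of Cpt2, Pex11a and Vnn1 ended without array 2, and those of Cpt2 and Pex11a also without array 5 or 6. The count of falls dropped to 2 without array 2, 5 or 6 and to 4 without array 1, and that of rises to 0 without array 2 and 1 without array 1, 3 or 6. Fatty acid and triglyceride synthesis gave 3 rises and 3 falls of 33, with a median of -0.10 that became -0.021 without array 4 and -0.173 without array 5. Lipoprotein lipase (Lpl), which adult hepatocytes make little of, ranged over 0.85, 1.21 and 1.76 and rose by 1.22 ± 0.30 (adjusted p = 0.000125), and the fatty acid receptor Cd36 rose by 0.83 ± 0.32. Besides Elovl3, the fatty acid binding protein Fabp5 fell by 0.68 ± 0.26 and the delta-5 desaturase Fads1 by 0.73 ± 0.60, with arrays 1 and 2 lowest for Fads1 (-1.71 and -1.18). Cholesterol synthesis gave 0 rises and 1 fall of 20, a share of 5%, with 0 higher and 3 lower at an unadjusted p under 0.05. The fall, in the sterol dehydrogenase Nsdhl (-0.40 ± 0.38), ended without array 1 or 2.

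The secreted and metabolic genes typical of hepatocytes gave 5 rises and 6 falls of 42, with a median of -0.0021. Apolipoprotein C-II (Apoc2), the activator of lipoprotein lipase, ranged over 0.45, 1.17 and 1.44 and rose by 1.05 ± 0.40 (adjusted p = 0.00034), and coagulation factor XI (F11) fell by 0.48 ± 0.26. Albumin (Alb) read 0.13 ± 0.87, transthyretin (Ttr) -0.17 ± 0.17, apolipoprotein A-I (Apoa1) -0.48 ± 0.18 and fetuin (Ahsg) 0.40 ± 0.16, and none of the 4 passed (adjusted p = 0.771, 0.696, 0.067 and 0.056). Histidine ammonia-lyase (Hal, -0.68 ± 0.60) fell and homogentisate dioxygenase (Hgd, 0.39 ± 0.34) rose, calls that ended without array 1, 2 or 4 for Hal and 1 or 3 for Hgd. Glucose-6-phosphatase (G6pc), the last step of glucose release, read -0.059, 0.13, 0.05, -2.08, -2.30 and -2.19 on arrays 1 to 6 (-1.08 ± 1.22). Arrays 1 to 3 lay near 0 and arrays 4 to 6 about 2 log2 units below it, and its call (adjusted p = 0.0365) ended without array 4, 5 or 6. The rises became 1 without array 3 and 3 without array 2 or 5, and the falls 2 without array 2 or 4 and 3 without array 1 or 6.

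Sex-biased genes of the liver follow the pulses of growth hormone, and the mice were male. Of 20 measured male-biased genes 1 rose and 6 fell, with a median of -0.15. The falls were led by Hsd3b5 and Moxd1, and Susd4, a complement regulator, ranged over -1.67, -1.38 and -0.87 and fell by 1.35 ± 0.29 (adjusted p = 3.82e-05). Other male-biased genes did not pass, among them the anion transporter Slco1a1, given above, and the P450 Cyp2d9 (-0.078 ± 0.24, adjusted p = 0.679). The rise, in the complement component C6 (0.56 ± 0.36), ended without array 1, 2 or 4. Of 20 female-biased genes 5 rose and 1 fell, with a median of 0.03. The rises were Cyp3a41a, Cyp3a16, Rtn4, Cyp2a4 and Fmo1, and the female-biased P450 genes Cyp2b9 (-0.082 ± 0.12) and Cyp2c40 (-0.29 ± 0.29) did not pass (adjusted p = 0.862 and 0.592). The fall, in Slc22a29 (-0.60 ± 0.46), ended without array 3, 4 or 6.

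Acute phase proteins, which the liver secretes in response to interleukin 6, differed from array to array rather than in a common direction. Of 27 measured 5 rose and 5 fell, with a median of 0.014 that became -0.28 without array 4 and 0.199 without array 3. The list's median was 0.61 on array 1 and 0.87 on array 4 and lay between -0.35 and -0.11 on the other 4, and 12 members were above 1 on array 4. Serum amyloid A2 (Saa2) read 2.44, 0.11, -3.97, 4.59, -0.061 and 0.34 on arrays 1 to 6 and did not pass (adjusted p = 0.728). Ceruloplasmin (Cp), the copper carrier, ranged over 0.34, 0.59 and 0.71 and rose by 0.56 ± 0.13 (adjusted p = 0.0132), a spread far narrower than that of the serum amyloid genes. The inhibitor heavy chain Itih4 fell by 0.79 ± 0.61 and Saa4, a constitutive serum amyloid, by 0.96 ± 1.08, both with array 4 alone above 0, at 0.42 and 0.92. The call for Saa4 ended without array 2 or 3. The rises fell to 3 without array 1 or 3 and 2 without array 4, and the falls to 2 without array 2 or 3 and 3 without array 5 or 6.

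Chaperones and genes of the endoplasmic reticulum stress response split the arrays in a like manner. Their median was 0.46 on array 1 and 0.61 on array 4, -0.40 and -0.41 on arrays 2 and 3, and 0.00 and 0.12 on arrays 5 and 6. Of 30 measured 5 rose and 3 fell. The median of 0.13 became 0.004 without array 1 and -0.06 without array 4, and without array 2 or 4 the rises were 3. The cytosolic chaperone Hspa8 ranged over 0.53, 1.07 and 1.21 and rose by 1.01 ± 0.25 (adjusted p = 0.00115), with array 2 below the other 5. Asparagine synthetase (Asns), a target of the amino acid response, ranged over -0.83, -0.53 and -0.26 and fell by 0.56 ± 0.21 (adjusted p = 8.38e-06), and the stress transcription factor Atf5 fell by 1.11 ± 0.26 (adjusted p = 3.36e-05). Dnajb9, an XBP1 target, rose by 1.08 ± 0.64, with arrays 2 and 3 lowest. The chaperone Hspa1a rose by 0.76 ± 0.74, with array 5 below 0. Its call ended when the 20-week arrays were fitted on their own. The ER chaperone Hspa5 read 0.15 ± 0.82 (adjusted p = 0.8). Without array 4 the falls were 5.

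**Figure D3:**
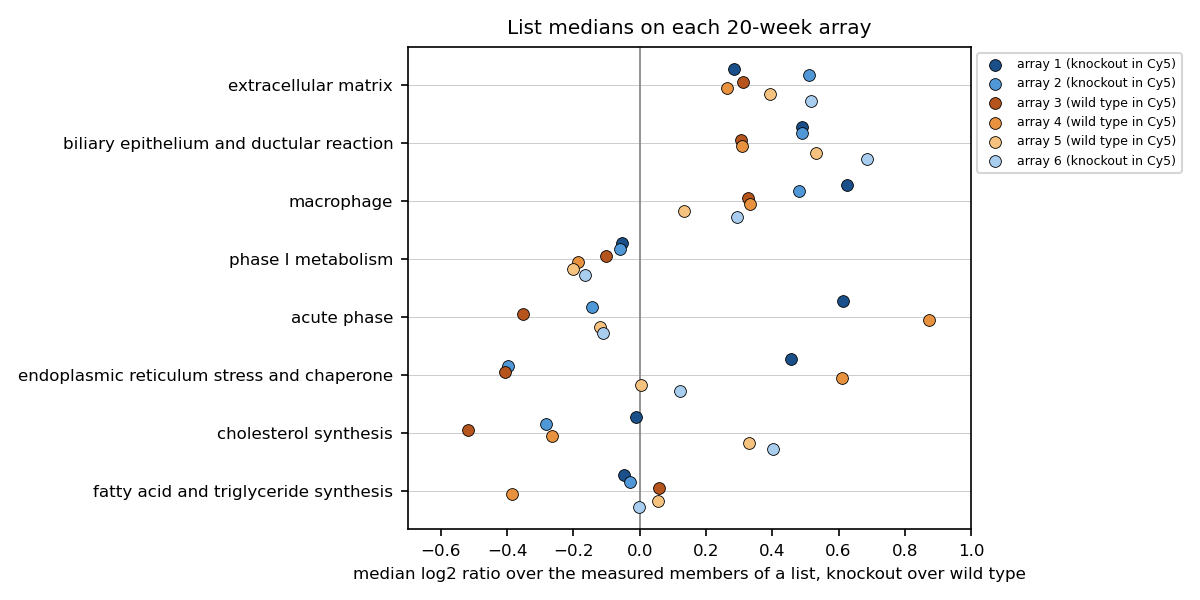
Median log2 ratio over the measured members of 8 gene lists (horizontal axis, knockout over wild type) on each of the 6 arrays at 20 weeks, as points coloured by array, with blue for the knockout in Cy5 and orange for the wild type in Cy5. Matrix, biliary and macrophage medians are above 0 on every array, whereas acute phase and chaperone medians are above 0.4 on arrays 1 and 4 and below -0.1 on arrays 2 and 3, and cholesterol synthesis is above 0.3 on arrays 5 and 6 only.

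Cell cycle genes gave 3 rises and 1 fall of 42, a share of 9.52% against 13.5% of all items, with a median of 0.11. Cyclin D1 (Ccnd1), which drives entry into the cycle, ranged over 1.12, 1.68 and 1.97 and rose by 1.57 ± 0.33 (adjusted p = 2.42e-05). The tubulin-binding stathmin (Stmn1) rose by 0.94 ± 0.40. Some genes that mark cells in S phase or mitosis did not pass: the proliferation antigen Mki67 read 0.22 ± 0.16, topoisomerase Top2a 0.12 ± 0.18 and the mitotic kinase Cdk1 0.13 ± 0.097, with adjusted p of 0.0899, 0.604 and 0.429. The ubiquitin conjugase Ube2c rose by 0.38 ± 0.16, a call that ended without array 5, and the kinesin Kif20a fell by 0.47 ± 0.24, a call that ended without array 6. In a fit of the 20-week arrays alone, 12 cell cycle genes rose.

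The oncofetal and tumour-associated list gave 10 rises and 0 falls of 25, with none lower at an unadjusted p under 0.05 and a median of 0.16 that became 0.29 without array 1. Of the 10, Ly6e, Tff3, Lcn2, S100a6, Cd63 and Scd2 belong to other lists too. The call for Scd2 ended without array 1, 2 or 6. S100a11 is given with the largest rises, and the related S100a6 rose by 1.01 ± 0.48. Annexin A2 (Anxa2) ranged over 0.81, 1.59 and 2.43 and rose by 1.64 ± 0.64 (adjusted p = 1.35e-05), and galectin 3 (Lgals3), a lectin of macrophages and ducts, rose by 0.83 ± 0.21. The Golgi protein Golm1 rose by 0.54 ± 0.14 as the mean of 2 features that read 1.01 and 0.07, and the call did not hold for the features on their own. The fetal liver genes Afp (-0.089 ± 0.16), H19 (-0.31 ± 0.38) and Gpc3 (0.16 ± 0.42) did not pass, with adjusted p of 0.494, 0.745 and 0.594.

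Lists of tissues that could be carried along had shares of calls not far below the 13.5% of all items. They were 10% for erythroid, 7.69% for exocrine pancreas and 10% for adipose genes. With 10 to 13 genes each, these shares do not show whether such tissue was present. Erythroid genes had 1 rise of 10, in carbonic anhydrase 2 (Car2, 0.74 ± 0.25), which bile duct cells also hold, with globin Hba-a1 at -0.25 ± 0.65 (adjusted p = 0.497). Exocrine pancreas genes had 1 fall of 13, in Ctrl (-0.40 ± 0.31), a call that ended without array 2 or 5, and Ctrb1, which did not pass, ran from -3.81 on array 1 to 1.36 on array 5 (SD 1.69, adjusted p = 0.138). Adipose genes had 1 fall of 10, in adiponectin (Adipoq, -0.29 ± 0.13). The medians of these 3 lists were -0.06, -0.08 and -0.09. At an unadjusted p under 0.05, 0 erythroid genes lay lower, 0 pancreas genes higher and 1 adipose gene higher.

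The 20-week difference was set against the earlier weeks by testing the 20-week mean minus the mean of the 3, 6 and 9 week means. Of 20861 items 493 passed (2.36%), 315 above 0 (1.51%) and 178 below (0.853%), and 276 and 144 of these were named genes. Both sides share the wild type and knockout strains but no arrays. The count was 151 without array 1 of 20 weeks and 1097 without array 2 of 9 weeks, the lowest and highest counts with any 1 of the 24 arrays left out.

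Among the 8 largest positive differences were genes of amino acid metabolism that had been low in the knockout and were no longer so. Prodh, the first enzyme of proline breakdown, had means of -1.54, -0.55 and -0.45 at 3, 6 and 9 weeks and 0.23 ± 0.21 at 20 weeks, a difference of 1.08 ± 0.18 (SE, adjusted p = 0.00256). Ahcy, which hydrolyses S-adenosylhomocysteine, went from -1.80, -1.41 and -1.04 to -0.25 ± 0.43, and Cth, the cystathionine lyase that makes cysteine, from -1.63, -0.96 and -0.76 to -0.054 ± 0.42 (adjusted p of the differences 0.018 and 0.0128). Cyp2a4 had the largest positive difference. It was far below 0 at 3 weeks and above it at 20, with means of -2.78, -0.79 and 0.33 and then 1.15 ± 0.31 (difference 2.23 ± 0.34, adjusted p = 0.00158). Casp12, a caspase linked to the endoplasmic reticulum, was higher at 20 weeks (1.49 ± 0.59) after 0.11, 0.68 and 1.03, and Aldh3a2 (1.20 ± 0.15) after 0.54, -0.27 and 0.62, with adjusted p of the differences of 0.0137 and 0.0195. Herpud1 of the endoplasmic reticulum's degradation machinery (0.95, adjusted p = 0.02) and Mid1ip1, which activates acetyl-CoA carboxylase (1.09, adjusted p = 0.0396), completed the 8. Only Cyp2a4 and Prodh of the 8 passed with each 20-week array left out. Without array 1 the calls for Ahcy, Cth, Aldh3a2, Herpud1 and Mid1ip1 ended, at adjusted p of 0.0703, 0.0611, 0.0724, 0.0952 and 0.149. That for Casp12 ended without array 2 (0.0542), for Ahcy also without array 3 (0.0526), for Herpud1 without array 4 (0.0605), and for Mid1ip1 without arrays 2, 3, 5 or 6. The call for Mid1ip1 also ended in 8 of the 18 fits that left out an array of an earlier week, with no dye term (0.113), with the replicate block (0.0522), with a common spread (0.0693) and with the closest pair averaged (0.074).

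Of the 8 largest negative differences, Cyp2c38 and Moxd1 fell further at 20 weeks than before. Cyp2c38 had means of -0.91, -2.68 and -1.84 at 3, 6 and 9 weeks and -3.64 ± 0.49 at 20 weeks (difference -1.83 ± 0.30, SE, adjusted p = 0.00226). Moxd1 had 0.068, -0.02 and -0.85 and then -1.93 ± 0.66 (difference -1.66 ± 0.21, adjusted p = 0.000282). Claudin 1 (Cldn1), a protein of tight junctions between hepatocytes, was slightly above 0 before (0.27, 0.41 and 0.19) and below 0 on all 6 arrays at 20 weeks (-0.89 ± 0.31, adjusted p of the difference 0.00332). Spen, a transcriptional corepressor, went from 1.21, 0.68 and 0.68 to -0.10 ± 0.51 (adjusted p = 0.00963). These 4 calls held with each 20-week array left out. The calls for Cldn1 and Spen ended without arrays 1 and 2 together (0.0737 and 0.214).

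Of the others, the smooth muscle actin Acta2 had means of 1.03, 1.43 and 1.27 at 3, 6 and 9 weeks and 0.015 ± 0.77 at 20 weeks, a difference of -1.23 ± 0.29 (SE, adjusted p = 0.0291), and Actg2, the enteric smooth muscle actin, had 0.92, 1.45 and 1.41 and then 0.15 ± 0.70 (adjusted p = 0.0228). Their probes may bind each other's transcripts. For Acta2 the 20-week values lay between -1.04 on array 1 and 1.14 on array 5, and the adjusted p of the difference became 0.129, 0.0858, 0.0727 and 0.0682 without array 1, 2, 3 or 4. That for Actg2 became 0.105, 0.0611, 0.0552 and 0.0627. Gstm6 went from 2.19, 1.04 and 1.31 to 0.22 ± 0.93 and the helicase-like D1Pas1 from 0.93, 0.38 and 0.22 to -0.48 ± 0.63, with adjusted p of the differences of 0.0395 and 0.0395. Both calls ended without array 1, 2 or 4, that of Gstm6 also without array 6 and that of D1Pas1 without array 3, and they held in 7 and 9 of the 18 fits without an array of an earlier week. Both ended with a common spread (0.0642 and 0.0501), and that of Gstm6 also with the dye term dropped (0.0518) or fitted for each week (0.0538), with quantile normalization (0.063) and with the closest pair averaged (0.0529).

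**Figure D4:**
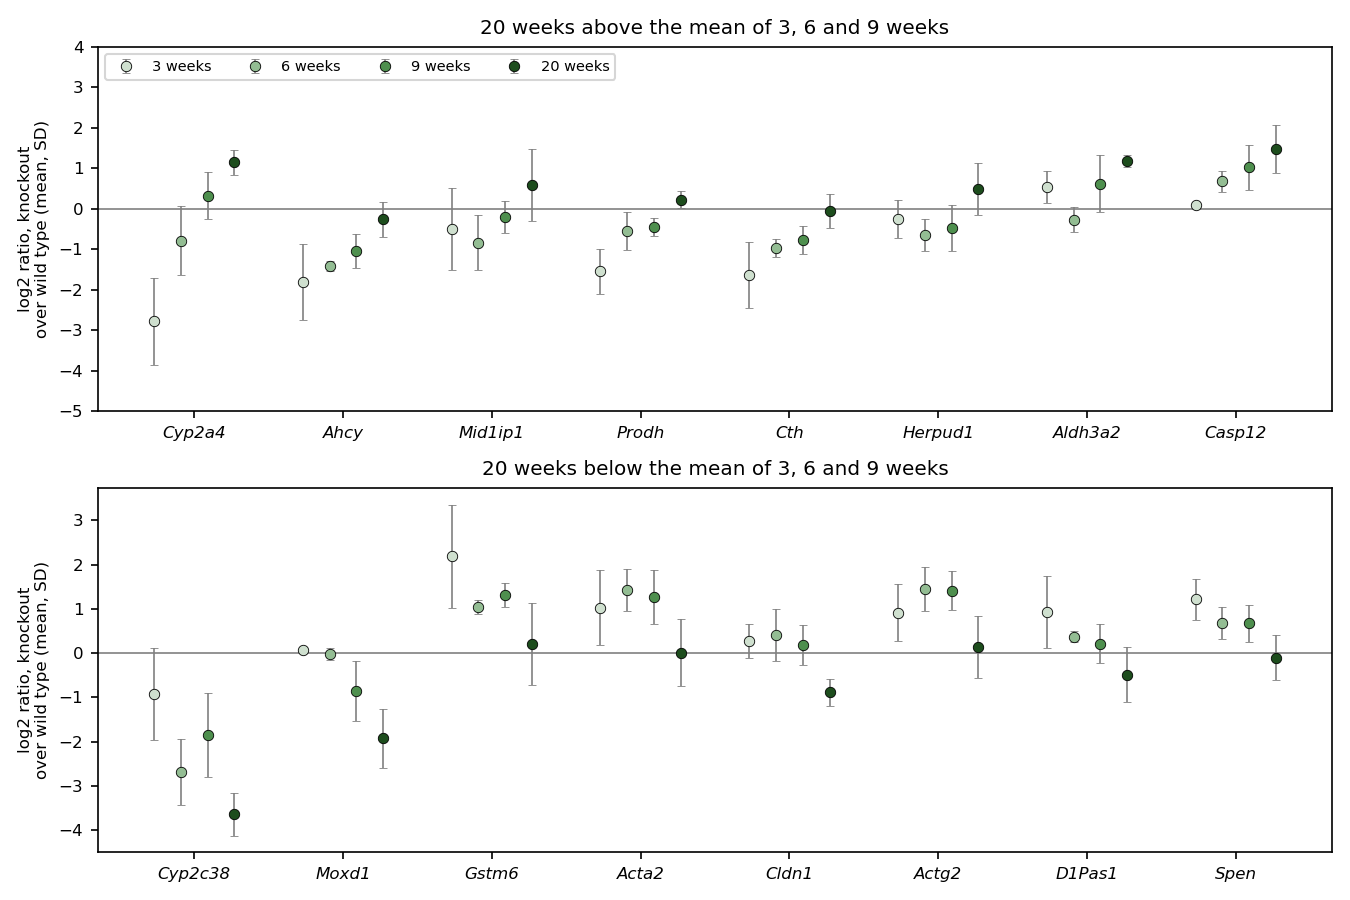
Mean log2 ratio of knockout over wild type (vertical axis) with the SD over 6 arrays at 3, 6, 9 and 20 weeks, for the 8 largest positive (top) and 8 largest negative (bottom) differences between 20 weeks and the earlier weeks. Cyp2a4 lies below 0 at 3 weeks and above 0 at 20 weeks, and Acta2 and Actg2, above 0 in the earlier weeks, spread around 0 at 20 weeks.

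Within the gene lists, Jchain showed a 20-week rise that the earlier weeks lacked. Its means were 0.029, -0.075 and 0.10 at 3, 6 and 9 weeks and 0.66 ± 0.32 at 20 weeks, a difference of 0.64 ± 0.073 (SE, adjusted p = 7.45e-05), and the call held with each array of any week left out. Cell cycle genes had list medians of 0.37, 0.34 and 0.24 at 3, 6 and 9 weeks and 0.11 at 20 weeks. Of the 42, 0 passed above and 1 below in the contrast, the chromatin protein Hmgb2 (difference -0.56, adjusted p = 0.00606), and at an unadjusted p under 0.05 0 lay above and 17 below. Fatty acid oxidation genes had medians of -0.02, -0.49 and -0.31 and then -0.11, with 1 of 38 past the threshold above 0, the enoyl-CoA hydratase Echs1 (difference 0.55, adjusted p = 0.0335), and 0 below, and 15 above and 0 below at an unadjusted p under 0.05. The counts at an unadjusted p stand against 16% of all items at that threshold, 8.79% above and 7.19% below. Those at the adjusted threshold stand against 1.51% of all items above and 0.853% below, so 1 gene of a list is little to go by. The call for Echs1 ended without array 1, 2, 3, 4 or 6 of 20 weeks. Of the 23 bile acid genes 3 passed above 0 and 0 below, with 6 above and 1 below at an unadjusted p under 0.05. Cyp27a1 was less low at 20 weeks than before, with means of -1.23, -0.88 and -0.88 and then -0.53 ± 0.16 (difference 0.47, adjusted p = 0.0098, and 0.0708 with quantile normalization). Slc27a5, which joins bile acids to coenzyme A, had -1.34, -0.79 and -0.72 and then -0.18 ± 0.27 (difference 0.77, adjusted p = 0.00226). FXR (Nr1h4) was the third (difference 0.59, adjusted p = 0.0423), a call that ended without array 1, 2, 3 or 4 of 20 weeks and held in 7 of the 18 fits without an array of an earlier week. It also ended with the replicate block (0.0573), a dye term for each week (0.0612) and a common spread (0.0505). The genes of this paragraph were chosen after their values were seen.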

How the data were processed

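Liver RNA was measured on 24 spotted cDNA arrays of 2 colours, 6 per week, per the labels' protocols after RNeasy extraction and FairPlay labelling. The authors deposited 1 log ratio of the dyes per feature and array, taken here as a log2 ratio, since the labels do not state the base. How the authors normalized these deposited log2 values is not given in the sources used here. The deposited array medians at 20 weeks lay between -0.037 and 0.0034. The value rows follow the probe list only after the row numbers are filled row by row into a grid of 215 by 105, both axes are reversed and the grid is read by column. With that order, 48 accessions spotted 10 or 11 times had a mean of median correlations between their spots of 0.664, against 0.00533 for the direct order, and Abcb4 was below 0 on 24 of 24 arrays, against 12.

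Arrays with wild type in Cy5 were turned in sign and each array was centred on its median. Of 22575 features, 18218 had 1 gene, 16 several and 4341 none in the annotation table given for the platform, and 43 gene IDs were outside the RefSeq reference and kept the table's symbol. Features were averaged per gene, for 1193 genes with more than 1 feature, of which 10 had features passing in opposite directions. limma 3.58.1 in R 4.3.3 fitted 1 mean per week and a dye term to all 24 arrays and gave Benjamini-Hochberg adjusted p-values over 20861 items, with a threshold of 0.05. The fit was also run on simulated data, with noise drawn independently for each gene and array. That run cannot show how likeness between arrays or repeated mice affects the p-values. No intensities were used, so precision rests on the number of arrays and the residual spread of each item, not on signal.

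Abcb4, the 15 largest rises and falls with 1 sign on all 6 arrays, up to 5 members of each of 29 gene lists with the smallest p, and the 8 largest differences from the earlier weeks in each direction were picked for naming. Some list members so picked are not described in the text. Clone names and predicted genes were counted and not named. The arrays, gene lists and tests were chosen with earlier results of these data known. Alternatives were no dye term, a dye term per week, no centring, a common spread, quantile normalization, a replicate block, array weights, the 20-week arrays on their own, features on their own, the closest pair of arrays averaged, and each 20-week array left out.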

Additional observations from a re-analysis of the deposited data

Results flagged for a closer look

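In 18 of 276 results tested, 1 of the 6 arrays at 20 weeks lay far from the other 5, where chance gives about 1 in 20. Array 4 did so for Lcn2 (4.68) and Itih4 (0.42), which are acute phase genes, and for the median of fatty acid and triglyceride synthesis (-0.38). Array 1 did so for the macrophage genes Lyz2 (1.17, the lowest) and Mpeg1 (1.71, the highest), the cytokine Il1b (0.64), the bile acid genes Nr0b2 (0.57) and Slc27a5 (0.34), and Hmgb2 (-0.70). Array 3 stood apart for Cyp7b1 (-1.97), Cyp2d9 (0.38) and the bile acid transporter Slc10a2 (0.15). Array 2 stood apart for the chaperone Hspa8 (0.53) and the macrophage receptor Trem2 (1.09), and array 5 for Isg15 (0.94) and for the medians of the oncofetal list (0.48), the hepatobiliary transporters (0.12) and the adipose list (0.02).

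The knockout effect at 20 weeks differed from the mean of the earlier weeks, by limma's test of that difference, for 493 items. Among the genes picked for this list, the log2 difference was above 0 for Cyp2a4 (2.23), Ahcy (1.16), Mid1ip1 (1.09), Prodh (1.08), Cth (1.06), Herpud1 (0.95), Aldh3a2 (0.90), Casp12 (0.88), Slc27a5 (0.77), Jchain (0.64), Nr1h4 (0.59), Echs1 (0.55) and Cyp27a1 (0.47). It was below 0 for Cyp2c38 (-1.83), Moxd1 (-1.66), Gstm6 (-1.30), Acta2 (-1.23), Cldn1 (-1.17), Actg2 (-1.11), D1Pas1 (-0.99), Spen (-0.96) and Hmgb2 (-0.56). Other genes named in the text passed this test too. Fmo1 (0.75), Hgd (0.65), Mmp7 (0.48) and Ramp2 (0.26) lay above 0. Below 0 lay Sdr9c7 (-0.95), Krt18 (-0.89), Susd4 (-0.87), Clec4f (-0.78), Sult5a1 (-0.74), Atf5 (-0.69), Slc4a2 (-0.50) and Asns (-0.41). Of these other genes, only Hgd, Sdr9c7, Sult5a1 and Asns kept the call with each single array of any week left out.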

How the results depend on the processing

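The 2807 calls at 20 weeks lay between 2093 and 3735 under the alternatives that kept all 6 arrays or averaged the closest pair (arrays 5 and 6), and between 1821 (without array 2) and 2433 with 1 array left out. Rises then lay between 1142 and 1444 and falls between 679 (without array 2) and 989. The falls were also over 1.5 times fewer without array 1 (739) and array 6 (681). The 493 differences from the earlier weeks moved more. They numbered 313 (179 above 0) with no dye term and 1082 (670 above, 412 below) with array weights. With 1 of the 24 arrays left out they ranged from 151 (96 above, 55 below, without array 1 of 20 weeks) to 1097 (656 above, 441 below, without array 2 of 9 weeks). Without array 2, 3, 4 or 6 of 20 weeks they numbered 223, 250, 266 and 312. Leaving out an array of an earlier week was chosen after seeing the data, as was leaving out arrays 1 and 2 together. The latter left 1191 calls (751 higher, 440 lower) and 101 differences (56 above, 45 below). The cause of these moves was not tested.

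Of 280 called genes from the lists, the naming rule and the text, 186 kept their call under each alternative that left out at most 1 array of 20 weeks. Of the called genes, Col14a1 (-0.005) and Cx3cl1 (-0.0858) changed sign and lost their call when features of a gene were taken on their own. The other sign changes were of genes that did not pass at 20 weeks. With 1 array left out, Acta2 ranged from -0.1757 to 0.1902, Actg2 from -0.0658 to 0.3144, Cd3e from -0.0866 to 0.0077, Cth from -0.1615 to 0.0804, H2-Eb1 from -0.073 to 0.0562, Hspa5 from -0.0585 to 0.4036, Isg15 from -0.1604 to 0.1147, Saa2 from -0.3568 to 1.4444, Spen from -0.1934 to 0.0195, Stab2 from -0.0653 to 0.0775 and Vsig4 from -0.0174 to 0.3119. Isg15 was 0.0012 with array weights, and Acta2 was -0.1412 and Stab2 0.0721 with the closest pair averaged. Without arrays 1 and 2, Abcg8 was 0.0478, Cd3e 0.0438, Fn1 0.0199, Il6 -0.0256, Isg15 0.0088, Spen 0.173 and Vsig4 -0.0914.

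Calls of Cat, G6pc, Gstm1, Nsdhl, Saa4, Slc27a2, Tff1, Cma1, Esam, Cd163 and Adgre1 also ended when the 20-week arrays were fitted on their own, and those of Acox2, Cma1, Ctrl, Esam, G6pc, Gbp2, Ifit1 and Tff1 with the closest pair averaged. The median of 6 of the 29 lists had another sign with some array left out, and bile acid synthesis, male-biased (-0.234 without array 2, -0.226 without array 5) and acute phase genes (-0.28 without array 4) exchanged the lowest place.

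The titles number the samples of each week alike. The residuals of a 20-week array and the same-numbered array of an earlier week correlated between -0.315 and 0.496, above 0.1 in 11 of 18 pairs. The median over such pairs of unlike number was -0.0201. Correlated residuals cannot decide whether the numbers pair the samples. With the replicate block 2857 items passed at 20 weeks and 489 in the contrast.

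The assumed direction and log base, the unnamed dye swap and the lack of intensities limit every value: a ratio of a dim feature cannot be told from one of a bright feature, and related transcripts that share probe sequence cannot be separated.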

Other observations

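Genes outside the 29 lists also changed at 20 weeks, and those given here were chosen after their values were seen. Some genes of the actin cytoskeleton, whose other members were not counted, rose: the actin-sequestering thymosins Tmsb10 (1.27 ± 0.35) and Tmsb4x (1.15 ± 0.39), the cytoplasmic actin Actg1 (1.19 ± 0.29), the transgelin relative Tagln2 (1.17 ± 0.24), the tropomyosin Tpm4 (1.00 ± 0.24) and the non-muscle myosin chain Myh9 (0.93 ± 0.28). Each was above 0 on all 6 arrays, unlike the smooth muscle genes Acta2 and Tagln. The secreted chaperone clusterin (Clu) ranged over 1.33, 1.41 and 1.67 (lowest, median and highest array) and rose by 1.46 ± 0.15 (adjusted p = 6.82e-06 in limma), and Igfbp7, a secreted binding protein of growth factors, by 1.56 ± 0.16. The TGF-beta receptor Tgfbr2 rose by 1.37 ± 0.37, the transcription factors Jun and Nfe2l2 (NRF2) by 1.32 ± 0.42 and 1.19 ± 0.59, the zinc importer Slc39a4 by 1.56 ± 0.53 and the desmosome-linked periplakin (Ppl) by 1.56 ± 0.31. Col2a1, the fibrillar collagen of cartilage, rose by 1.75 ± 0.34.

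Falls outside the lists held several liver enzymes. The deiodinase Dio1, which activates thyroid hormone, ranged over -1.59, -1.18 and -1.03 and fell by 1.24 ± 0.21 (adjusted p = 0.000901 in limma), the uridine phosphorylase Upp2 fell by 1.27 ± 0.55, and Hacl1, which shortens branched fatty acids, by 1.22 ± 0.30. The mitochondrial Pck2 fell by 1.20 ± 0.40, the cortisone reductase Hsd11b1 by 0.87 ± 0.39, the antimicrobial peptide Leap2 by 1.01 ± 0.68, the retinol saturase Retsat by 0.98 ± 0.32 and the paraoxonase Pon1 by 0.77 ± 0.39. All of these were below 0 on all 6 arrays. The calls of all the genes in these 2 paragraphs held under each alternative run, also without arrays 1 and 2 together.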
